A study of Danio rerio with 50 samples.

Results

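Clade A of the zebrafish odorant receptor (OR) genes comprises subfamilies or101 to or114. The 57 rows of the count tables whose names begin with these numbers were taken as its members, out of 142 OR genes and 29033 genes in all. Clades B and C hold 53 and 32 of the other OR genes. The question was which clade A genes were chosen, and at what level, by single olfactory sensory neurons (OSNs) and by pools of OSNs that project to the central zone (CZ).

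ORs are G protein-coupled receptors on the cilia of OSNs, where odour binding acts through an olfactory G protein, adenylyl cyclase and cyclic nucleotide-gated channels. A mature OSN usually transcribes a single OR gene out of the repertoire, and the receptor chosen is linked to the glomerulus that the axon reaches. OR genes lie in tandem arrays in which closely related copies sit side by side, and members of the same subfamily are near relatives. The ligands of single clade A receptors are not treated here.

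Transcriptomes of 47 single OSNs and of 3 bulk samples were measured by RNA-seq in Tu/TLF zebrafish embryos, collected while olfactory axons are growing to their targets. The single cells came from embryos carrying an RFP transgene under the promoter of olfactory marker protein, Tg(omp:lyn-RFP), were sorted for RFP, captured on the Fluidigm C1 system in 2 independent runs and amplified with the SMARTer kit. Fluidigm spike-ins had been added to 14 cells and ERCC spike-ins to 33, and cells are named here by this set and a number. The labels do not give the run of a cell. The bulk samples also carried Tg(or111-7:or111-7-IRES:GAL4) and Tg(UAS:gap43-citrine), and cells with both RFP and Citrine were pooled, from 3 independent experiments. The GAL4 transgene carries or111-7 itself, so that its reads and those of the endogenous gene cannot be told apart. The labels give no animal or culture for a cell, so cells were not treated as replicates and no test between cells was made. Total counts ranged from 6951519 to 30192554 per cell and were 2651985, 6250589 and 5320049 in the bulk libraries. All intervals below are exact (Clopper-Pearson) 95% intervals and cover counting error only. They count cells, or reads within a cell, as if drawn independently. Animals shared between cells and amplification copies among reads are not covered.

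The predominant receptor of a cell was the OR gene with the most raw counts, provided it had at least 100. That minimum equals 3.31 to 14.4 CPM (counts of a gene per 1000000 counts of the library), depending on the depth of the cell. A clade A gene was predominant in 9 of 47 cells, or 19.1% (interval 9.15 to 33.3%). Another 9 cells chose a clade B gene, 10 chose a clade C gene and 19 had no gene with an OR name at 100 counts. Of these 19, ERCC cell 10 held the row zgc:152857, named or119-1 of clade B in the study's text, at 31583.8 CPM. With that row among the OR genes there were 10 clade B cells and 18 cells without a receptor, and the clade A cells were the same in number. Clade A was chosen in 5 of 14 Fluidigm cells (35.7%, interval 12.8 to 64.9%) and in 4 of 33 ERCC cells (12.1%, interval 3.40 to 28.2%). The sets also differed in cells with any OR-named predominant receptor, 11 of 14 and 17 of 33. Among these cells the clade A shares were 45.5% (interval 16.7 to 76.6%) and 23.5% (interval 6.81 to 49.9%). These shares were not compared by a test. The 9 choices fell on 7 genes from 4 subfamilies, with or106-8 and or112-1 each chosen by 2 cells. The same minimum was reached at a lower rank by 7 clade A genes, 6 of which were predominant nowhere, so that 13 of 57 genes reached it in any cell. The same share over all OR genes was not computed, so this count is not a result about clade A.

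**Figure D1:**
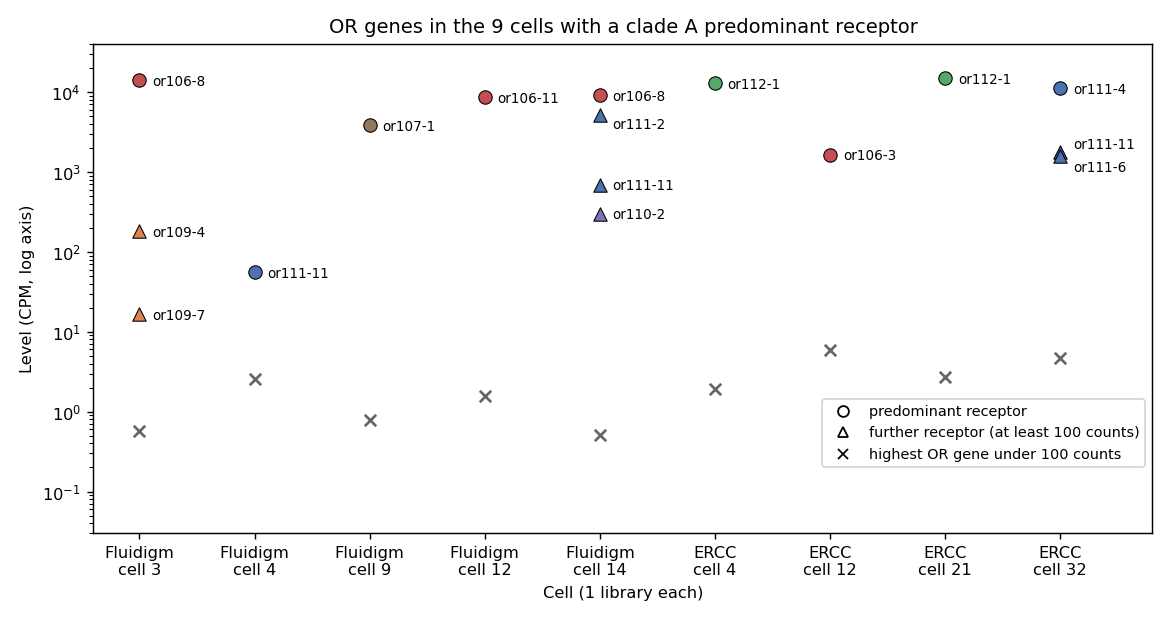
Level in CPM (log axis) of every OR gene with at least 100 counts in each of the 9 cells with a clade A predominant receptor, coloured by subfamily. Circles are predominant receptors, triangles further receptors and crosses the highest OR gene under 100 counts. The predominant receptor lay between 55.5 and 14853 CPM, and every cross at or under 5.98 CPM.

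The predominant clade A receptor lay between 55.5 and 14853 CPM, with a median of 9161 CPM over the 9 cells. In the 9 clade B cells, ERCC cell 10 left out, the predominant OR ranged from 98.4 to 24372 CPM (median 5767). In the 10 clade C cells it ranged from 154 to 31243 CPM (median 2657). The 3 ranges overlapped, and those of clades B and C reached higher. CPM is not divided by gene length, so an order between genes is an order of reads and not of transcript numbers. With size factors from the 306 genes that had a count in every cell, in place of total counts, the clade A median was 2235. The clade B and C medians were not computed on that scale, so this value cannot be set against those above. The predominant gene made up 59.8 to 99.97% of all OR counts in these cells, with a median of 99.5%.

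In subfamily or106, 3 of 12 genes were predominant, in 4 cells. or106-8 stood at 14109 CPM in Fluidigm cell 3 and at 9161 CPM in Fluidigm cell 14. or106-11 reached 8656 CPM in Fluidigm cell 12, where it was 99.95% of OR counts. or106-3 was at 1647 CPM in ERCC cell 12, the only cell of its set that chose an or106 gene. Another member, or106-7, was never first but reached 676 CPM in Fluidigm cell 13, whose predominant receptor was or136-1 of clade C, and 48.95 CPM in Fluidigm cell 10, which chose or125-4 of clade B. In both cells it was well below the chosen gene, 14.96-fold under or136-1 and 105-fold under or125-4.

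or112-1, the sole member of its subfamily, had the highest level of any clade A gene in a single cell. It stood at 12899 CPM in ERCC cell 4 and 14853 CPM in ERCC cell 21. In these cells it was 99.97% (interval 99.96 to 99.98%) and 99.95% (interval 99.94 to 99.96%) of OR counts. The highest other OR genes there were or103-1 with 31 counts in ERCC cell 4 and or111-3 with 51 counts in ERCC cell 21, both of clade A. or107-1, also alone in its subfamily, was at 3831 CPM and 99.93% of OR counts in Fluidigm cell 9. No Fluidigm cell chose or112-1 and no ERCC cell chose or107-1.

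In subfamily or111, 4 of 11 genes reached 100 counts. ERCC cell 32 held or111-4 at 11179.9 CPM together with or111-11 at 1767 CPM and or111-6 at 1576 CPM. The shares of OR counts were 77.0% (interval 76.8 to 77.1%), 12.2% (12.04 to 12.28%) and 10.8% (10.73 to 10.97%). These 3 genes belong to the same subfamily and lie on the same chromosome in the GRCz12tu annotation, with or111-6 2 steps and or111-11 7 steps from or111-4 among the clade A genes. Near-identical copies could have shared reads in the authors' counting, and this was not tested, so single or111 values are less certain than their sum.

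or111-11 was the clade A gene that reached 100 counts in the most cells, and its levels spanned more than those of any other. It stood at 1767 CPM in ERCC cell 32, 685 CPM in Fluidigm cell 14, 55.5 CPM in Fluidigm cell 4 and 9.58 CPM in Fluidigm cell 2. Only in Fluidigm cell 4 was it the predominant receptor, with 1368 counts and 94.4% of OR counts (interval 93.1 to 95.5%). That was the lowest predominant clade A level, below the next lowest, 1647 CPM, and in the other 5 cells with a single clade A receptor the share was 99.5 to 99.97%. In Fluidigm cell 2 its 123 counts were 0.166% of those of or121-2p, a clade B gene.

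Of the 9 clade A cells, 3 held further receptors, and all 7 of these belonged to clade A. Fluidigm cell 14 held 4 receptors, with or106-8 at 9161 CPM and or111-2 at 5173 CPM, 1.77-fold apart, followed by or111-11 at 685 CPM and or110-2 at 299.6 CPM. or106-8 and or110-2 lie on the same chromosome, whereas or111-2 and or111-11 lie on another. Fluidigm cell 3 held or109-4 at 181 CPM and or109-7 at 16.5 CPM beside or106-8, 78.0-fold and 856-fold below it. These 2 or109 genes lie on the chromosome of or106-8, 10 and 13 clade A genes away. Among the 19 cells choosing clade B or C, 6 held a further receptor, and in 3 of them it included a clade A gene. Over all cells a clade A gene was the second receptor in 5, of which 4 were Fluidigm cells.

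The minimum of 100 counts did not fall into a wide gap. Among clade A genes, the nearest values inside it were the 123 counts of or111-11 in Fluidigm cell 2 and the 315 counts of or109-7 in Fluidigm cell 3. The nearest clade A values outside were or111-3 with 88 counts in ERCC cell 32 (4.75 CPM) and or106-2 with 78 counts in ERCC cell 12 (5.98 CPM). Of the 44 clade A genes that did not reach the minimum, 4 had a highest value of 10 to 99 counts, 32 of 1 to 9 counts and 8 had 0 in every cell. A count of 0 allows up to 3 counts, or 0.0994 to 0.432 CPM at these depths.

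The 4 genes with a highest value of 10 to 99 counts had it in a cell that had chosen another clade A gene. or106-2 had 78 counts in the cell that chose or106-3 and at most 1 count in any other cell. or111-3 had 88 counts in the cell that chose or111-4 and 51 in ERCC cell 21. Each of these pairs, or106-2 with or106-3 and or111-3 with or111-4, is next to each other on its chromosome. or103-1 and or103-4 had 31 and 24 counts, each in a different cell that chose or112-1, and at most 5 and 0 counts elsewhere. Whether shared reads of near copies gave these counts was not tested.

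Low counts of clade A genes were found in all cells. In the 35 cells with no clade A receptor, summed clade A counts were 4 to 99, or 0.209 to 5.69 CPM with a median of 0.968 CPM. They came from 1 to 13 genes per cell (median 4), and no single gene exceeded 70 counts. In the cells that chose clade A the sum was 58.1 to 15320 CPM, above the range of those 35 cells. The rule for a receptor favours such a separation, so it is no separate result. Fluidigm cells 2, 10 and 13, with a clade A gene only as a further receptor, had 13.7, 49.4 and 679 CPM. The last of these lay within the range of the cells that chose clade A only because of Fluidigm cell 4, at 58.1 CPM. The next lowest sum in a cell that chose clade A was 1654 CPM, in ERCC cell 12.

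**Figure D2:**
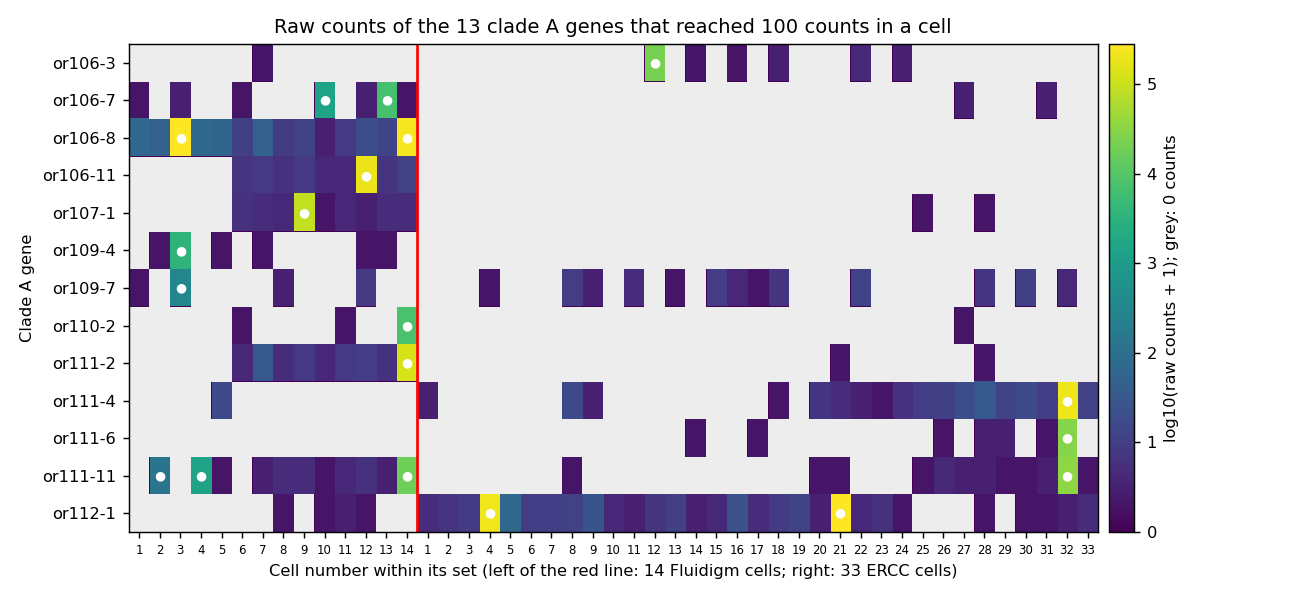
Raw counts (colour, log10 of counts + 1) of the 13 clade A genes that reached 100 counts in any cell (rows) in the 14 Fluidigm and 33 ERCC cells (columns), with grey for 0 and a white dot for at least 100. or106-8 had counts in all 14 Fluidigm cells and 0 in all 33 ERCC cells, and or112-1 had counts in 29 of 33 ERCC cells and 4 of 14 Fluidigm cells.

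These low counts differed by spike-in set, and several of the genes concerned had been chosen by another cell of the same set. or106-8, chosen by 2 Fluidigm cells, had 2 to 70 counts (median 15.5) in each of the other 12 Fluidigm cells and 0 in all 33 ERCC cells. or112-1, chosen by 2 ERCC cells, had a count in 27 of the other 31 ERCC cells, with a highest value of 64 counts (3.54 CPM), and in 4 of 14 Fluidigm cells, with at most 2 counts. or111-4, chosen by ERCC cell 32, was found in 17 of the other 32 ERCC cells (highest 30 counts) and in 1 Fluidigm cell, at 15 counts. An exception was or109-7, which reached 100 counts only in Fluidigm cell 3 but had low counts in 13 of 33 ERCC cells and 3 of 13 other Fluidigm cells, at most 11.

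Within the Fluidigm set the titles of the cells form 2 blocks of numbers, cells 1 to 5 and cells 6 to 14. The labels do not say what these blocks stand for. or106-11, or107-1 and or111-2 reached 100 counts only in the second block. Each had a count in all 8 other cells of that block and 0 in all 5 cells of the first block. In those 8 cells the counts were 3 to 11 for or106-11, 1 to 5 for or107-1 and 3 to 31 for or111-2. or106-8 was chosen once in each block. It had 49 to 70 counts in the other cells of the first block and 2 to 46 in those of the second. The part of carry-over between libraries in these counts was not tested.

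The 9 clade A genes that reached 100 counts in a Fluidigm cell gave 543 of the 639 clade A counts under the minimum in that set, or 85.0%, and are 15.8% of clade A genes. The 5 genes that did so in an ERCC cell gave 415 of 856 such counts there, or 48.5%, and are 8.77% of the genes. Few genes carried these sums. or106-8 alone gave 354 of the 543 counts, and or112-1 and or111-4 gave 228 and 154 of the 415. For the 13 genes, the lowest level at 100 counts or more was 16.6-fold (or109-7) to 15609-fold (or106-11) above the highest level of the same gene in the remaining cells. The rule itself made this split. Between genes the distance was small, with or106-2 at 5.98 CPM in ERCC cell 12 and the receptor or111-11 at 9.58 CPM in Fluidigm cell 2.

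By subfamily, the predominant receptors came from or106 (4 cells), or111 (2 cells), or112 (2 cells) and or107 (1 cell). The genes at 100 counts, at any rank, were 13 of 57 in all. or106 and or111, with 12 and 11 genes, each had 4 genes at 100 counts, while or109 had 2 of 9, or110 1 of 2, and or107 and or112 their only member. In or101, or102, or103, or104, or105, or108, or113 and or114 no gene reached it. or102, with 6 genes, had no gene above 6 counts in any cell, and or103, with 5 genes, none above 31. With 9 choosing cells, a subfamily not seen here is not shown to be silent.

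In the bulk libraries the clade A share of OR counts was 42.0%, 51.0% and 48.8%, or 47.3 ± 4.66% (SD, n = 3), and clade A holds 40.1% of the OR genes. Without or111-7, which the transgene also carries, the mean share was 45.3%. The summed level of clade A was 733, 568 and 1158 CPM. Clade B had 40.6 ± 9.57% and clade C 12.1 ± 4.92% of OR counts (SD, n = 3). There is no bulk sample of other OSNs to compare with. In bulk samples, fewer cells that chose a gene and less RNA per cell cannot be told apart.

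**Figure D3:**
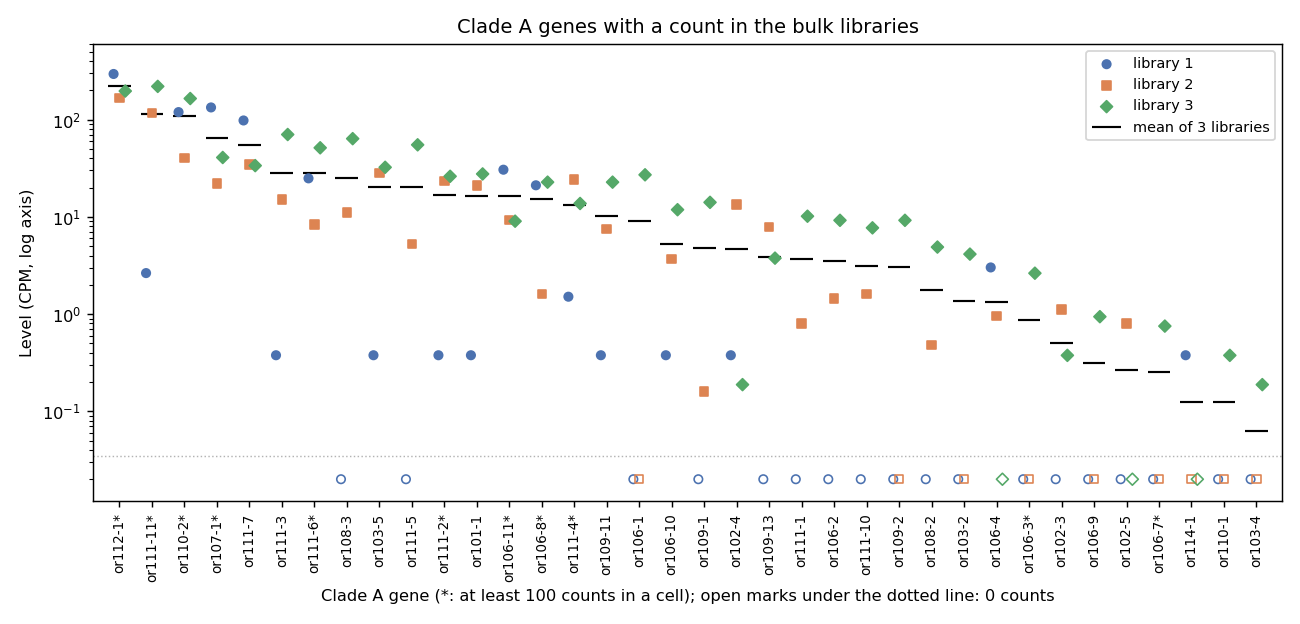
Level in CPM (log axis) of the 36 clade A genes with a count in any bulk library, ordered by the mean of the 3 libraries (bars). Marks are the 3 libraries, open marks are 0 counts, and an asterisk marks the genes with at least 100 counts in a cell. or112-1 had the highest mean, at 167 to 295 CPM, with or111-11 above it in library 3, and library 1 had 1 count or none for many genes present in the other libraries.

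or112-1 was the clade A gene with the highest mean in bulk, at 295, 167 and 197 CPM (219 ± 67.1 CPM, SD, n = 3). It was second among all 142 OR genes, after or125-4 of clade B at 271 ± 310 CPM (SD, n = 3), and their ranges overlapped. or111-11 followed at 2.64, 116 and 220 CPM, low in library 1 and high in the others. or110-2 was at 120, 40.5 and 165 CPM and or107-1 at 133, 22.1 and 40.8 CPM, each present in all 3 libraries. or111-7, whose regulatory region drives the label, ranked 5 among clade A genes at 98.0, 34.7 and 33.6 CPM, or 55.5 ± 36.9 CPM (SD, n = 3) and 34.2 CPM without library 1. In library 3 or111-11 lay above or112-1. or112-1 lay above or110-2, or107-1 and or111-7 in all 3 libraries. The order of or111-11, or110-2, or107-1 and or111-7 among themselves changed between libraries. These 5 genes held 88.5%, 67.0% and 56.6% of clade A counts.

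Of the 57 genes, 16 had a count in all 3 bulk libraries, 10 in 2, 10 in 1 and 21 in none. The number with a count was 18 in library 1, 27 in library 2 and 33 in library 3. Over all 29033 genes these numbers were 11377, 16881 and 18457, with 10249 genes found in all 3 libraries. The rise from library 1 to library 3 was thus not particular to clade A. Of the 18 genes in library 1, 8 had a single count there. Without library 1, 25 genes had a count in both other libraries. The floor of 3 counts was 1.13, 0.480 and 0.564 CPM, so genes at 0 could lie below these levels. Among the 36 genes seen, 25 were highest in CPM in library 3.

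The subfamily or111 held a share of clade A counts of 17.4%, 40.5% and 42.1% (33.4 ± 13.8%, SD, n = 3), with 19.3% of the genes. Its mean was above that of or112, 28.9 ± 11.6% (SD, n = 3), but the order depended on the library and on or111-7. Without or111-7 the mean shares were 27.2% for or111 and 31.7% for or112, and without library 3 they were 28.97% and 34.8%. or111-7 gave 76.7% of or111 counts in library 1, but 15.1% and 6.90% in libraries 2 and 3, where or111-11 was the most abundant member. or112-1 alone held 40.2%, 29.3% and 16.99% of clade A counts. or106, the largest subfamily with 21.1% of the genes, held 7.51%, 2.99% and 7.27%. or104, or105 and or113 had 0 counts in all 3 libraries.

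**Figure D4:**
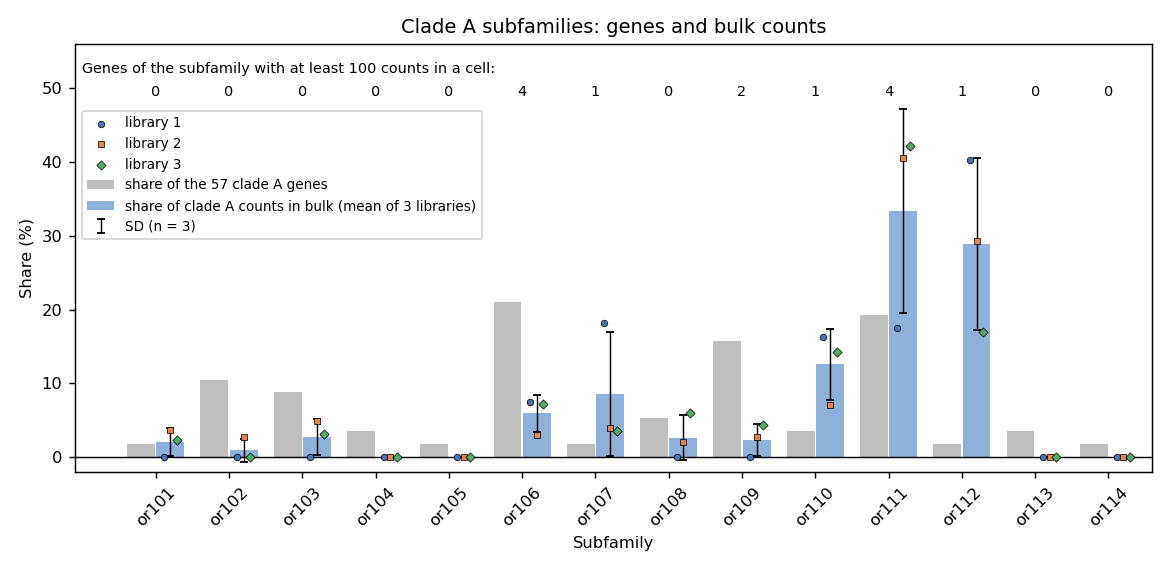
Share of the 57 clade A genes (grey) and share of clade A counts in bulk (blue, mean of 3 libraries with SD and single libraries as marks) in percent for each of the 14 subfamilies, with the number of genes at 100 counts or more in a cell printed above. or111 and or112 held 33.4% and 28.9% of bulk clade A counts, and or106, with the most genes, 5.92%.

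Cells and bulk overlapped in part. Of the 13 genes that reached 100 counts in a cell, 11 had a count in bulk and 9 in all 3 libraries. Of the other 44 genes, 25 had a count in bulk and 7 in all 3. The same shares over all genes were not computed, so these numbers are not a result about clade A. or109-4 and or109-7, both receptors of Fluidigm cell 3, had 0 counts in bulk. or106-3 and or106-7 were found only in library 3, with 14 and 4 counts. Of the 5 genes highest in bulk, or112-1, or111-11 and or107-1 were predominant in a cell and or110-2 was a further receptor. or111-7 did not exceed 2 counts (0.214 CPM) in any of the 47 cells, which did not carry the or111-7 transgene.

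Some genes with clear bulk counts were at or near 0 in every cell. or108-3 had 0, 69 and 339 counts in bulk (24.9 ± 34.1 CPM, SD, n = 3) and at most 1 count in a cell. or103-5 had 1, 176 and 172 counts in bulk, or111-5 had 0, 33 and 293, and or101-1 had 1, 132 and 147. In cells these 3 genes did not exceed 5 counts. In each, library 1 held no more than 1 count, so the bulk level rested on the other libraries. Another 7 genes had counts in bulk and 0 in all cells. The highest of these 7 were or109-11, with 1, 47 and 121 bulk counts, and or106-1, with 0, 0 and 144.

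**Figure D5:**
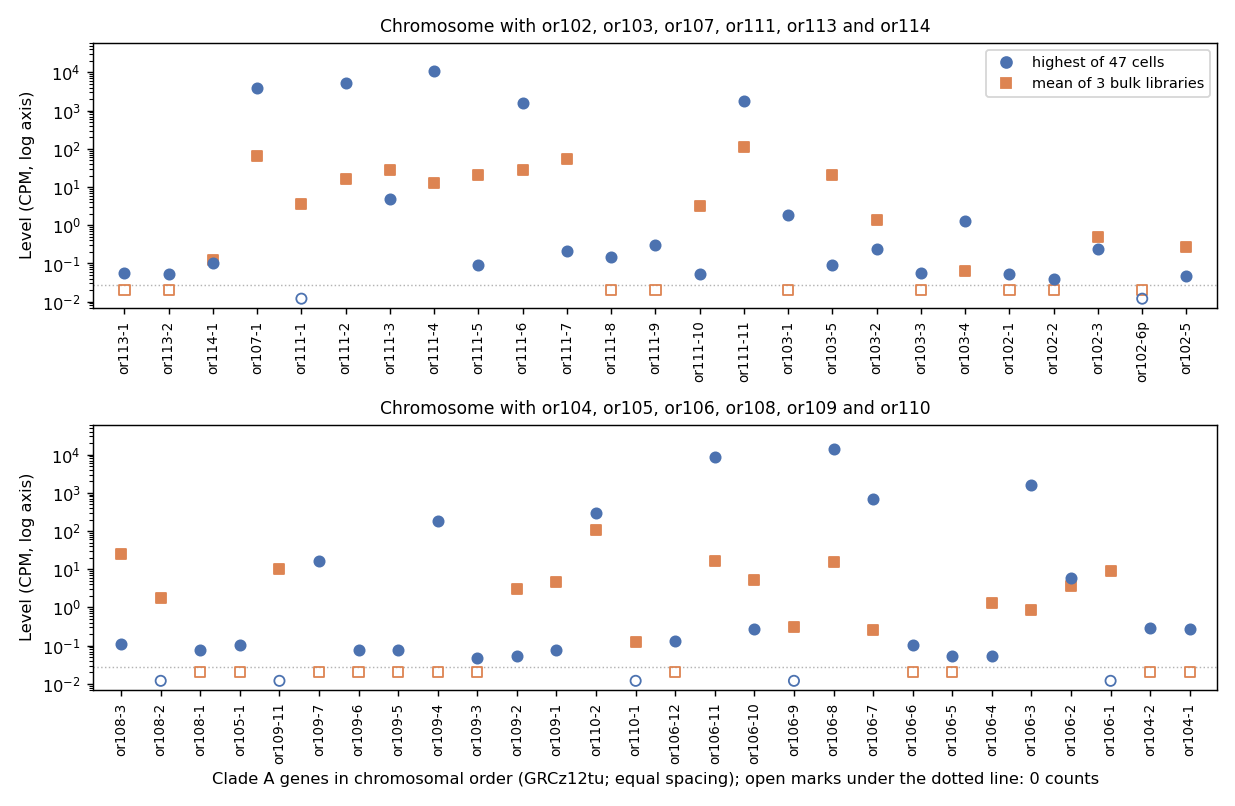
Highest level in any of 47 cells (circles) and mean of 3 bulk libraries (squares) in CPM (log axis) for the 53 clade A genes placed in the GRCz12tu annotation, in chromosomal order with equal spacing. Open marks are 0 counts. Genes with reads lay next to genes at or near 0 on both chromosomes, with or111-8 and or111-9 at 0 in bulk between or111-7 and or111-11.

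In the GRCz12tu annotation 53 of 57 genes could be placed by name, 28 on the chromosome of or106 and 25 on that of or111, and or112-1, or101-1, or102-4 and or109-13 were not matched. The authors' build was GRCz10, so only the order of genes is used. Along the or111 array, or111-1 to or111-7 all had bulk counts, at means of 3.65 to 55.5 CPM. The next genes, or111-8 and or111-9, had 0 in the 3 libraries, and after them or111-10 and or111-11 stood at 3.10 and 113 CPM. In the or109 array, or109-3 to or109-7 had 0 in bulk, while or109-1 and or109-2 had 4.75 and 3.07 CPM. On the or111 chromosome the 5 genes at 100 counts in a cell were or107-1 and 4 or111 genes, with none in the or102 and or103 arrays that follow.

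Genes of the odour transduction pathway were read in the 9 clade A cells to check that they were ciliated OSNs. Of the 7 genes of this list in the table, 8 of the 9 cells reached 100 counts for 4 to 6. gng13b and gnal, G protein subunits of ciliated OSNs, and ompb, olfactory marker protein, each reached it in the same 8 cells. Their medians over the 9 cells were 1600, 1769 and 887 CPM. The exception was Fluidigm cell 4, the cell with or111-11 at 55.5 CPM, which reached 100 counts for 0 of the 7 genes and had gng13b at 0.243, gnal at 0.973 and ompb at 1.38 CPM. The cell with the weakest clade A receptor thus held little of the defining markers of its labelled type. Without it 8 cells chose 6 clade A genes, at 1647 CPM or more. cnga4, a channel subunit, reached 100 counts in 7 of 9 cells and adcy3b, an adenylyl cyclase, in 2 of 9. In the 19 cells that chose clade B or C these numbers were 16 for gng13b, 17 each for gnal, ompb and cnga4, and 8 for adcy3b.

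Genes with a known part in OR choice in mouse were read in the same cells. Of 12 such genes in the table, 8 reached 100 counts in at least 1 clade A cell and 10 in at least 1 cell choosing clade B or C. These numbers rest on 9 and 19 cells, with ERCC cell 10 left out, and the share over all genes was not computed. They are therefore not a result about these genes. The Ebf factors ebf1a and ebf1b each reached it in 8 of 9 clade A cells and ebf3a in 7, with medians of 126, 784 and 88.5 CPM. atf5a, a factor of the OR feedback signal, reached it in 8 cells (median 704 CPM) and in all 19 clade B or C cells (median 706 CPM). For ebf1a, ebf1b and atf5a the missing cell was Fluidigm cell 4, at 0.0405, 0.0811 and 0.933 CPM. It is the cell that was low in the transduction genes. emx2, a homeobox factor, was at 2871 CPM in Fluidigm cell 9, 1858 CPM in ERCC cell 4 and 2179 CPM in ERCC cell 21, and at most 0.314 CPM in the other 6. These 3 cells were those that chose or107-1 or or112-1. emx2 reached 100 counts in 1 of the 19 clade B or C cells. The 19 cells without an OR-named receptor include ERCC cell 10, which held zgc:152857. emx2 reached 100 counts in 2 of these 19, with a highest value of 2939 CPM in ERCC cell 1. lhx2b, a LIM-homeodomain factor, reached it in 1 of 9 clade A cells, ERCC cell 12, and lhx2a in none, against 7 and 5 of 19 clade B or C cells. eif2ak3, the kinase PERK, was at or under 4.76 CPM in all 9 and reached 100 counts in 6 of those 19. In the 19 cells without an OR-named receptor, lhx2b, lhx2a and eif2ak3 reached it in 11, 6 and 8. In bulk libraries 1, 2 and 3, lhx2b was at 86.4, 65.9 and 67.1 CPM and lhx2a at 146, 105 and 87.4 CPM. eif2ak3 was at 31.3, 112 and 96.8 CPM there. The paper had listed eif2ak3 as elevated in clade C cells of this series, so its contrast here is not a separate result. Other members had like shares in clade A cells and in clade B or C cells. ldb1a reached 100 counts in 5 of 9 and 10 of 19 cells, and kdm1a in 3 of 9 and 6 of 19. No difference between the groups was tested, since cells are not replicates.

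Markers of other cell types were also read in the clade A cells. gap43 and gng8 of immature OSNs, ora4 of crypt neurons and gnrh3 of the terminal nerve did not exceed 0.0615 CPM. trpc2b of microvillous OSNs was at 43.4 CPM in ERCC cell 21 and its partner gnaia at most at 1.15 CPM in any of the 9. s100z, a crypt neuron marker, reached 100 counts in 5 of 9 cells (highest 2585 CPM), with ora4 at 0 in all 9. The blood gene hbbe1.1 reached it in 3 of 9 (highest 408 CPM). In bulk libraries 1, 2 and 3 in turn, gap43 was at 14.3, 198 and 78.0 CPM and gng8 at 32.1, 133 and 277 CPM. The microvillous genes trpc2b and gnaia were at 0, 59.0 and 8.65 CPM and at 29.8, 136 and 104 CPM. s100z was at 624, 965 and 1542 CPM, ora4 at 0, 23.04 and 1.88 CPM and gnrh3 at 291, 0.640 and 179 CPM, so that several of them varied widely between libraries. hbbe1.1 was at 28.3, 6.56 and 4370 CPM and hbae1 at 5.28, 0.960 and 1077 CPM, highest in library 3. That library also held the most clade A genes and the most genes in all. The part of these cells in the bulk values was not tested.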

How the data were processed

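The deposited files hold raw read counts per gene for 47 cells and 3 bulk libraries, over the same 29033 genes. Per the methods and the submitters' processing notes, the authors aligned reads to GRCz10 with STAR. The notes name HTSeq and CASAVA 1.8.2, and the methods name VERSE for counting the cells. The bulk amplification is described differently in the paper's text and the labels, so it is not settled. No normalization had been applied, and 0 per-sample columns were left unused. Reads carry no molecular identifiers.

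Groups came from the sample labels, and the bulk experiments from the methods. CPM was the count divided by the total over all genes. Python 3.11.15 with pandas 2.3.3, numpy 2.4.6 and scipy 1.17.1 was used for counts, shares and exact binomial intervals. Clade A genes were taken by name, and the row zgc:152857, named or119-1 in the paper, was added to the OR genes only as an alternative. Genes named singly were those with at least 100 counts in a cell, or111-7, the 5 highest in bulk and the listed pathway genes. Other clade A genes, namely those of 10 to 99 counts, those in bulk but not in cells, and those next to one another in gene order, were named after their values were seen, as was the contrast drawn for emx2. CNGA2_(1_of_2) stood for cnga2, and ldb1b was not matched. The members and lists were chosen with earlier results of these data known. Gene order came from RefSeq GRCz12tu. Protein and promoter sequences were not analysed here. The alternatives changed the minimum count, scaling, OR rows and libraries, 1 at a time.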

Additional observations from a re-analysis of the deposited data

How the results depend on the processing

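The 9 cells with a clade A predominant receptor became 11 at a minimum of 10 counts, when Fluidigm cells 1 and 7 were added through or106-8 at 70 and 46 counts. They were 9 at 10 CPM, on subfamily sums and with zgc:152857 among the OR rows, and 6 without the cells holding more than 1 clade A receptor, an alternative chosen after seeing the data. Without Fluidigm cell 4, also chosen after seeing the data, they were 8 cells with 6 genes and a median level of 10170.4 CPM. The 5 cells with a clade A second receptor became 20 at 10 counts and 4 at 10 CPM, since the lower minimum takes in the low counts described above. The 7 predominant genes were 4 in Fluidigm and 3 in ERCC cells alone. The 13 genes at 100 counts were 49 at 1 count and 5 in ERCC cells alone. The median predominant level of 9161 CPM was 9303 over non-OR totals and 2235 with median-of-ratios size factors; the cause was not tested. The 16 genes found in all 3 bulk libraries were 7 at 10 counts, 9 at 1 CPM and 16 to 25 with a library left out. Leaving out a library gave clade A shares of 45.4 to 49.9%, or111 shares of 28.97 to 41.3% and or111-7 means of 34.2 to 66.4 CPM. The order of or111 over or112 in mean bulk share turned without or111-7 (27.2% and 31.7%) and without library 3 (28.97% and 34.8%). The other alternatives kept each listed value within 1.5 times or 1 SD. For the bulk shares and the or111-7 level, leaving out 1 of 3 libraries cannot move the mean by 1 SD. That rule could not fail there, so it says nothing on how stable those values are. No paired analysis was possible because the labels give no replicate numbers and no test was made. Limits: 9 choosing cells of unnamed animals leave wide intervals, bulk library 1 has the fewest counts, near-identical copies may share reads, and CPM is not corrected for length.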
